A study of Homo sapiens with 10 samples.

Results

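FLAG-only exonic peaks far from gene starts are peaks of the FLAG-ZMYND8 list that were selected on their width, position and lack of overlap with the ZMYND8 list. A peak was a member when it was under 1 kb wide, overlapped no peak of the ZMYND8 list by 1 bp or more, and had its midpoint over 3 kb from the 5′ end of every annotated gene and inside an exon of a protein-coding gene, on chromosomes 1 to 22 and X. The rule kept 3301 peaks of the 63690 in the FLAG-ZMYND8 list, and of the 78776 in both lists. Width, missing overlap, distance and exonic position were therefore fixed by the choice of members and are given as descriptions without a test.

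The study mapped ZMYND8 by ChIP-seq, which sequences the DNA that comes down with a protein in crosslinked chromatin, in HEK293, an established human embryonic kidney cell line. For the FLAG-ZMYND8 ChIP (2 replicates), a doxycycline-inducible construct in Flp-In T-REx HEK293 cells was switched on with doxycycline at 10 nM, and the 3×FLAG-ZMYND8 it encodes was brought down with anti-FLAG. For the ZMYND8 ChIP (2 replicates), an antibody against ZMYND8 itself was used, and the labels describe cells with the tagged WT or N228F protein without saying which of them were used. The 10 samples also comprise H3K14ac ChIP, H3K27ac ChIP, input and a separate FLAG input, which were not analysed here. No doxycycline is recorded for the ZMYND8 ChIP. The cells of the FLAG-ZMYND8 ChIP retain their own ZMYND8 beside the induced protein. The lists differ in the antibody and in the recorded doxycycline, and may differ in the cells. The contributions of these to a FLAG-only peak cannot be told apart. One list was deposited for each target, without replicates and without any read number. Depth is therefore unknown, and all intervals below cover counting error of peaks only.

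ZMYND8 is a chromatin reader with a PHD finger, a bromodomain and a PWWP domain next to each other, which bind acetylated and methylated histone H3, and it works together with the NuRD deacetylase complex and with histone demethylases. An exon is a part of a gene that is kept in the mature RNA. Coding parts specify the protein, and the 5′ and 3′ untranslated regions (UTRs) flank them. Many genes have further transcript starts inside their own body, so that sequence far from the annotated start of a gene can still lie at a start of one of its shorter transcripts.

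From the FLAG-ZMYND8 list, 63688 peaks lay on the chromosomes used, of which 62541 were under the width limit and 56301 of those overlapped no ZMYND8 peak. Of these, 35749 lay over 3 kb from every gene start. Their midpoints fell in exons in 3301 cases (9.23%, 95% Wilson interval 8.94 to 9.54%), in introns in 21115 and outside protein-coding genes in 11333. The members made up 5.18% of the list. The widest member measured 997 bp and the narrowest peak kept out by width alone 1004 bp, and width alone kept out 24 peaks. The member nearest to a gene start lay 3001 bp from it and the nearest peak kept out by distance 2998 bp. Within 1 kb of the distance limit there were 373 members inside and 522 peaks outside. By the same rule with the lists exchanged, 483 exonic peaks were found only with the ZMYND8 antibody, and 270 narrow distal exonic FLAG peaks overlapped a ZMYND8 peak.

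The sequence at the centre of a few coding members is shown because the results turn on the base composition of the members. Each line holds 30 bases of hg19 (GRCh37) around the midpoint, 5′ to 3′ on the strand of the gene, with CpG dinucleotides in capitals. The first 6 are the widest coding members, followed by coding members of MACF1, the gene with most members, and by both members in the ZMYND8 gene.
FER1L5, chr2:97351668-97351697, plus strand: tggccacaggCGccctctgccctgcatgac
REM2, chr14:23356028-23356057, plus strand: agccaagaggttcctCGccaacctggtgcc
CREBZF, chr11:85375610-85375639, minus strand: aagagaCGgaggatatggactttctgtctg
DNAJB12, chr10:74094349-74094378, minus strand: cagactatgaaatccctggagaatttttgg
MOV10, chr1:113243133-113243162, plus strand: cacagcacccagccttctCGcaccagccaa
SHMT2, chr12:57627518-57627547, plus strand: cttacccaccttaggtggtactgacaacca
MACF1, chr1:39550069-39550098, plus strand: CGgtgctggaccctgcagagCGtgctgtgg
MACF1, chr1:39734651-39734680, plus strand: ccccaactcaCGggtagtCGatCGggggat
MACF1, chr1:39876248-39876277, plus strand: taagcagtgatgtgcagaagtcagcacctg
ZMYND8, chr20:45891123-45891152, minus strand: aCGggacaagcagggagtttatcCGgcagc
ZMYND8, chr20:45867775-45867804, minus strand: cccaaacttcCGCGgctggCGccacagcca
The count of CpG dinucleotides in these stretches goes up to 3, as in the second line for ZMYND8, and is 0 in some, such as DNAJB12 and SHMT2, so that being a coding member did not require a CpG at the centre.

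Coding sequence held the largest number of members and the 5′ UTRs the highest density. The midpoint lay in coding sequence in 1394 members (42.2%, interval 40.6 to 43.9%), in a 3′ UTR in 956 (29.0%), in a 5′ UTR in 365 (11.1%) and in other exonic sequence, such as exons of non-coding transcripts of the same genes, in 586 (17.8%). Where transcripts disagreed, coding took precedence over the 3′ UTR, the 5′ UTR and other exonic sequence, in this order. The genome offers these classes in very different amounts: over 3 kb from every gene start there were 27.2 Mb of coding sequence, 34.4 Mb of 3′ UTR, 2.82 Mb of 5′ UTR, 17.8 Mb of other exonic sequence and 1074 Mb of intron. Per Mb, there were 51.3 members in coding sequence (exact Poisson interval 48.6 to 54.0), 27.8 in 3′ UTRs (26.0 to 29.6), 130 in 5′ UTRs (117 to 144) and 32.9 in other exonic sequence (30.3 to 35.7). Introns held 19.7 FLAG-only peaks per Mb (19.4 to 19.9). Every exonic class was thus denser than introns, and the coding density was 2.61 times the intronic one.

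The difference from introns took another direction when sequence of the same GC content was compared. For each class, the number of peaks was divided by the number its sequence would hold at the intronic density of windows with the same GC content, in bins of 1%. This comparison was chosen after the data were seen. The ratio was 0.768 for coding sequence (0.728 to 0.809), 0.824 for other exonic sequence (0.758 to 0.893), 0.971 for 3′ UTRs (0.910 to 1.03) and 2.14 for 5′ UTRs (1.93 to 2.37). Over all exonic sequence it was 0.896 (0.866 to 0.927). At equal GC content, coding sequence therefore held fewer FLAG-only peaks than introns, 3′ UTRs could not be distinguished from introns within counting error, and 5′ UTRs held more. The antibody-only exonic peaks gave 0.940 for coding sequence (0.820 to 1.07), an interval that includes 1.00, and 2.54 for 5′ UTRs, where the interval was above 1.00. Among the shared exonic peaks the ratio was 0.697 for coding sequence (0.561 to 0.857), 0.678 for 3′ UTRs (0.467 to 0.953) and 7.24 for 5′ UTRs (5.96 to 8.70).

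**Figure D1:**
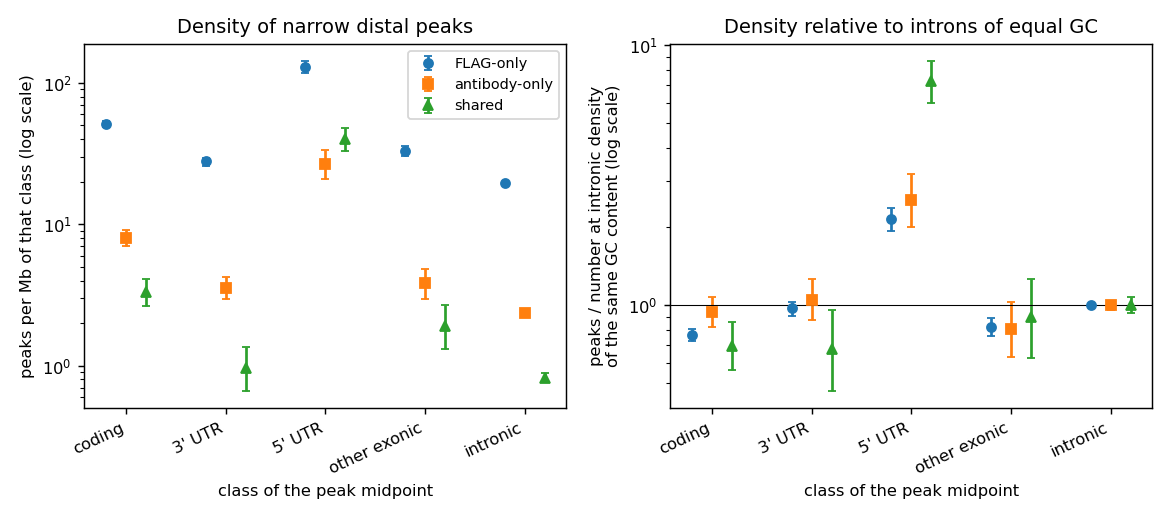
Peaks per Mb of each class (left) and peaks divided by the number at the intronic density of the same GC content (right), both on log axes, for narrow peaks over 3 kb from gene starts; points are the FLAG-only, antibody-only and shared peaks with 95% Poisson intervals. FLAG-only peaks in coding sequence sit at 51.3 per Mb on the left and at 0.768 on the right, while 5′ UTRs are above introns in both panels and in all 3 sets.

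The makeup of the members was set against that of the antibody-only exonic peaks. Coding sequence held 42.2% of the members and 218 of the 483 antibody-only peaks (45.1%), a difference of -2.90 percentage points (95% interval -7.67 to 1.79). It did not pass the threshold (two-sided Fisher's exact test over peaks, p = 0.237, Benjamini-Hochberg adjusted p = 0.237 over 3 tests). Leaving out the peaks that had a peak of the other list within 1 kb changed the difference to -6.07 points (Fisher's exact test, unadjusted p = 0.0375). The shared peaks had another makeup, with 113 of 270 in 5′ UTRs (41.9%, 36.1 to 47.8%) and 90 in coding sequence (33.3%). Peaks are not replicates, so these tests describe the 2 lists and not the spread between experiments.

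The members were rich in G and C. In the 200 bp around the midpoint, the median GC content was 60.5% in members, with quartiles of 56.0 and 64.5% and a range of 41.5 to 82.0%, against a median of 56.0% in intronic FLAG-only peaks. A window with at least 60% GC was counted as GC-rich. The share of GC-rich windows was 54.2% (1790 of 3301) in members and 24.5% (5163 of 21115) in intronic peaks, a difference of 29.8 points (28.0 to 31.6, odds ratio 3.66, two-sided Fisher's exact test over peaks, p = 9.95e-248, adjusted p = 2.98e-247). Exons are themselves richer in GC than introns: of the bases that could hold a midpoint, 21.5% were GC-rich in coding sequence, 5.71% in 3′ UTRs, 22% in 5′ UTRs and 8.95% in other exonic sequence, against 2.60% in introns. In each class the peaks were GC-rich more often than the sequence that could hold them. The test of members against intronic peaks made no allowance for the sequence on offer.

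Coding and untranslated members differed from each other in composition. GC-rich windows made up 64.0% of coding members and 45.5% of members in untranslated parts, a difference of 18.5 points (14.8 to 22.1, odds ratio 2.13, two-sided Fisher's exact test, p = 3.81e-22, adjusted p = 5.72e-22). The untranslated parts were not alike, with 60% GC-rich members in 5′ UTRs and 40% in 3′ UTRs. The eligible sequence itself differed: 21.5% of bases were GC-rich in coding sequence and 5.71% in 3′ UTRs. The 5′ UTRs were close to coding sequence in this, but offered 2.82 Mb against 34.4 Mb of 3′ UTR. The test made no allowance for the sequence each class offers, and a difference in GC-rich share beyond it was not tested. The median number of CpG dinucleotides in the window was 10 in 5′ UTR members, 8 in coding members and 5 in 3′ UTR members, against 4 in intronic peaks. CpG dinucleotides are the sites of DNA methylation and are depleted in most of the genome. Relative to the number predicted from the C and G content, the median CpG content was 0.582 in 5′ UTR members, 0.415 in coding members, 0.278 in 3′ UTR members and 0.298 in intronic peaks. Shared exonic peaks stood above all of these with 0.689. The median over all members was 0.364, against 0.383 in all FLAG peaks and 0.383 in antibody-only exonic peaks.

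Peak density rose steeply with GC content in every class up to 70%. Coding sequence held 4.94 members per Mb at a GC content of 40 to 50%, 68.7 at 50 to 60% and 162 at 60 to 70%. Introns held 5.52, 82.4 and 193 FLAG-only peaks per Mb in the same bins, so that coding sequence was below introns in each of them, although the intervals overlapped at 40 to 50%. The 3′ UTRs held 6.02, 84.1 and 199 members per Mb, close to introns. The 5′ UTRs held 22.8, 177 and 430, above all other classes. At 70 to 80% the densities were lower again, with 93.7 in coding sequence (72.4 to 119), 100.0 in introns (86.1 to 115) and 241 in 5′ UTRs (173 to 325). At 30 to 40% no member was found in 6.20 Mb of coding sequence, which allows up to 0.595 per Mb, and introns held 0.0242 per Mb.

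**Figure D2:**
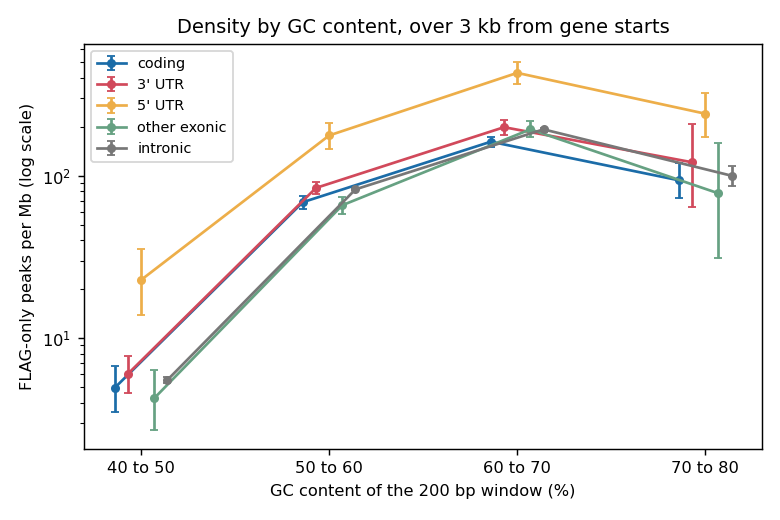
FLAG-only peaks per Mb (log axis) against the GC content of the 200 bp window in bins of 10 percentage points, for coding, 3′ UTR, 5′ UTR, other exonic and intronic sequence over 3 kb from gene starts, with 95% Poisson intervals and small sideways offsets for legibility. The lines of coding, 3′ UTR, other exonic and intronic sequence run together, from 4.26 to 6.02 per Mb at 40 to 50% to between 162 and 199 at 60 to 70%, and the 5′ UTR line lies above them.

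Many members lay near a transcript start inside their gene. The rule used gene starts, and 1930 of the 3301 members (58.5%) lay within 3 kb of the start of some annotated transcript, against 25.7% of intronic FLAG-only peaks. Within 500 bp of a transcript start there were 324 of the 365 members in 5′ UTRs (88.8%), 298 of the 586 in other exonic sequence (50.9%), 395 of the 1394 in coding sequence (28.3%) and 55 of the 956 in 3′ UTRs (5.75%). The share was 6.42% in intronic peaks. The median distance to a transcript start was 93 bp for 5′ UTR members and 4562 bp for 3′ UTR members. These shares follow in part from where the sequence lies, since 83.0% of the eligible 5′ UTR sequence and 43.1% of the coding sequence were within 3 kb of a transcript start, against 13.8% of the intronic sequence.

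Density was higher near transcript starts in each class. Coding sequence held 68.2 members per Mb within 3 kb of a transcript start (63.6 to 73.1) and 38.5 farther away (35.4 to 41.7). The 3′ UTRs held 44.9 and 23.7, and introns 36.6 and 17.0. In 5′ UTRs the values were 147 within 3 kb (132 to 163) and 46.0 farther away (28.8 to 69.6), the latter from 22 members. For ratios at the same GC content, all introns over 3 kb from gene starts served as the reference, whatever their distance to a transcript start. Coding sequence was at 0.837 within 3 kb of a transcript start (0.780 to 0.897) and at 0.691 farther away (0.636 to 0.749). Introns themselves were at 1.11 within 3 kb (1.08 to 1.14) and at 0.966 farther away (0.951 to 0.981). The ratio for 5′ UTRs was 2.20 near transcript starts (1.97 to 2.44) and 1.56 farther away (0.978 to 2.36), where the interval included 1.00. Coding members thus stayed below introns of equal GC content on both sides of this limit. The low ratio was not particular to coding sequence. Intronic sequence within 1000 bp of coding stretches had ratios of 0.508 to 0.861 in bins of 50 bp.

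By exon rank, first exons were the densest over all exonic sequence, at 73.1 members per Mb (67.7 to 78.8). Rank was taken in the transcript with the longest coding sequence that held the midpoint in an exon. Internal exons held 1220 members, last exons 1354, first exons 676 and single exons 51. In coding sequence, first exons held 206 members per Mb (164 to 256), internal exons 47.4 (44.5 to 50.3) and last exons 55.9 (49.6 to 62.9), the first of these from 82 members. In 5′ UTRs, first exons held 172 per Mb (154 to 192) and internal exons 51.0 (37.2 to 68.2). Other exonic sequence held 276 of the 676 first-exon members. There, first exons were at 39.4 per Mb (34.9 to 44.3) and single exons at 44.9 (31.1 to 62.7). Densities by rank were not matched for GC content. Last exons held 41.0% of the members, but 54.7% of the eligible exonic sequence, because most 3′ UTR sequence lies in last exons. Among internal coding exons, density went from 37.3 per Mb in exons under 150 bp (33.5 to 41.4) to 55.8 at 150 to 300 bp (50.6 to 61.3) and 69.4 at 300 to 1000 bp (59.1 to 81.1), and was 37.8 in exons of 1000 bp or more (30.1 to 47.0).

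Along the gene, members were most numerous towards the end, and the coding density was even. The median member lay 24106 bp from the start of its gene, with quartiles of 9622 and 62570 bp. Each gene was also divided into 10 parts of equal length. Measured from start to end of the gene, the median relative position was 0.711 for coding members, 0.948 for 3′ UTR members and 0.400 for 5′ UTR members. The last part of the gene held 1048 members (31.7%) and 38.9% of the eligible exonic sequence. Coding density lay between 44.6 and 62.4 per Mb in all 10 parts, with 62.4 in the first (43.0 to 87.7) and 53.7 in the last (47.8 to 60.1), and these intervals overlapped. Over all exonic sequence, density was 59.4 per Mb in the first part (47.8 to 72.9) and 32.0 in the last (30.1 to 34.0).

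**Figure D3:**
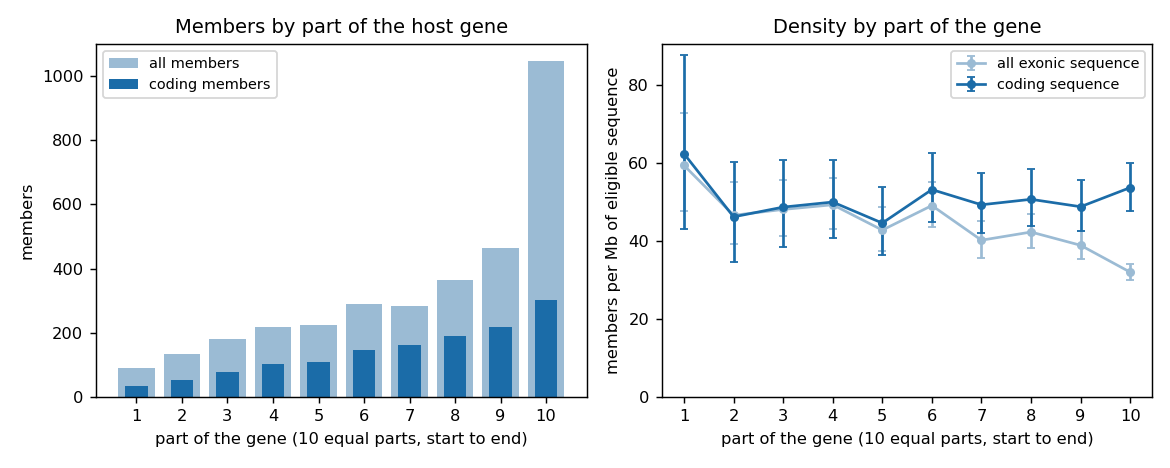
Members in each of 10 equal parts of the host gene from its start to its end (left, bars from 0) and members per Mb of eligible sequence in the same parts with 95% Poisson intervals (right), for all exonic and for coding sequence. The number of members climbs to 1048 in the last part, while coding density stays between 44.6 and 62.4 per Mb.

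Across the borders of exons, density and GC content rose together. There were 117244 coding stretches between introns, counted before sequence within 3 kb of gene starts was left out. In the remaining sequence, the intronic 50 bp bin that ends 1000 bp from the edge held 13.9 FLAG-only peaks per Mb (10.6 to 17.7). Intronic density was 21.1 at 50 to 100 bp from the edge and 30.0 in the last 50 bp (26.7 to 33.5). The first 50 bp of coding sequence held 34.1 per Mb (30.5 to 38.1), and the bins farther inside 47.8, 73.6 and 60.9, the last from 18 peaks. Only longer stretches reach the inner bins, and the sequence fell from 9.40 Mb in the first coding bin to 0.295 Mb in the innermost. The coding bins therefore do not compare the same exons. The mean GC content rose in parallel from 41.6% at the far intronic end to 46.5% just inside the edge and 54.3% in the innermost bin. Relative to introns of the same GC content, the ratio was 0.601 in the last intronic bin and 0.617 in the first coding bin, and stayed between 0.508 and 0.861 over the whole profile. The intervals of the densities on either side of the edge overlapped, so no step at the exon border was detectable. Many members reached beyond their exon: 631 coding members (45.3%) lay wholly in exonic sequence, against 897 members in 3′ UTRs (93.8%).

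**Figure D4:**
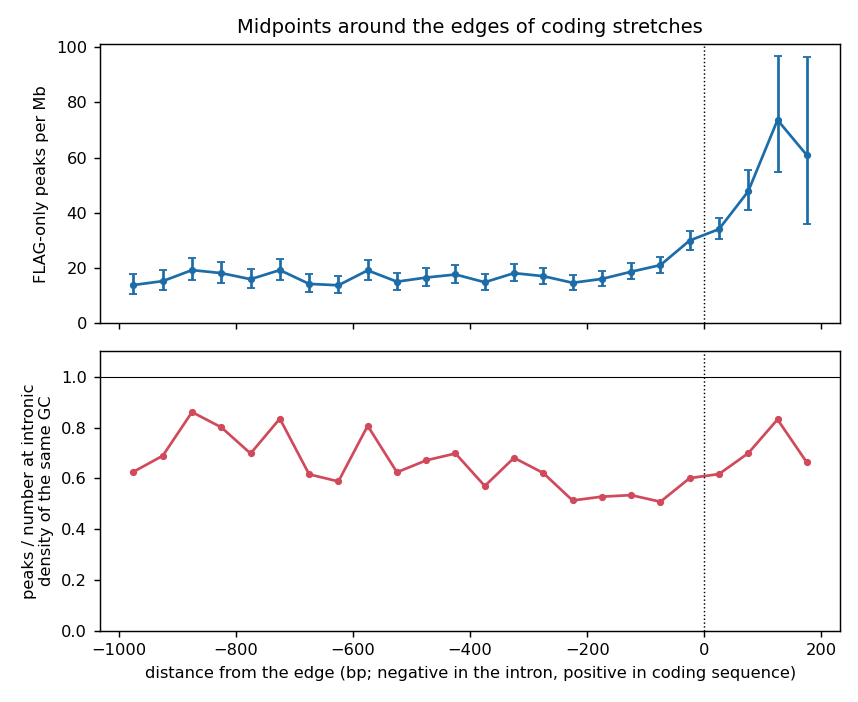
FLAG-only peaks per Mb with 95% Poisson intervals (top) and their ratio to introns of the same GC content (bottom) in 50 bp bins around the edge of coding stretches between introns, with the dotted line at the edge. Density rises through the edge from 30.0 to 34.1 per Mb, and the ratio stays below 1 in every bin.

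A smaller share of members in 5′ UTRs than in the other classes had the minimum width of the list. This minimum was 167 bp, and 2044 members (61.9%, 60.3 to 63.6%) had exactly this width, against 67.0% of intronic FLAG-only peaks and 21.1% of shared exonic peaks. By class, the share at the minimum was 62.2% in coding members, 68.4% in 3′ UTR members and 42.2% in 5′ UTR members (37.2 to 47.3%). The deposited score holds 1 in every row and did not rank the members beyond their width. Members wider than the minimum numbered 1257, and 63.0% of these were GC-rich.

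Members lay nearer to other peaks of both lists than intronic FLAG-only peaks did. The median gap to the next FLAG peak was 2854 bp, against 3627 bp in intronic FLAG-only peaks, and 923 members (28.0%) had one within 1 kb, against 22.9% of intronic FLAG-only peaks. In 5′ UTRs the share was 49.3%, with a median gap of 1091 bp. A ZMYND8 peak lay within 1 kb of 252 members (7.63%), although none overlapped one, with shares of 20.3% in 5′ UTR members, 6.17% in coding members and 5.44% in 3′ UTR members. In intronic FLAG-only peaks the share was 6.01%. The median gap to the nearest ZMYND8 peak was 15661 bp in members and 22270 bp in intronic FLAG-only peaks, and neither difference was tested. The ZMYND8 list is the shorter of the lists, with 15086 peaks, and the rule removed peaks that overlapped it.

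Short sequence motifs were searched on both strands of the 200 bp window. For CACGTG and for TGACTCA or TGAGTCA, the interval in members included the share of all FLAG peaks. GGGCGG was less frequent in members than in all FLAG peaks and more frequent than in intronic peaks. CCGGAAG was more frequent in members than in both. CACGTG, the core of an E-box, was in 4.45% of members (3.80 to 5.21%), 4.13% of all FLAG peaks and 3.86% of intronic FLAG-only peaks. TGACTCA or TGAGTCA, which are one AP-1 element read on both strands, was in 2.51% of members (2.03 to 3.11%), 2.64% of all FLAG peaks and 2.69% of intronic peaks. GGGCGG, the core of a GC box, was in 18.4% of members (17.1 to 19.8%), 20.9% of all FLAG peaks and 13.3% of intronic peaks, with 29.0% in 5′ UTR members (24.6 to 33.9%) and 14.2% in 3′ UTR members (12.2 to 16.6%). CCGGAAG, the core of an ETS element, was in 2.79% of members (2.28 to 3.41%), 2.24% of all FLAG peaks and 1.25% of intronic peaks, with 3.80% in coding members (2.92 to 4.94%) and 1.36% in 3′ UTR members. These differences were not tested, and the windows were not matched for GC content, which was higher in members than in intronic peaks. A match only means that these letters were in the window.

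The members lay in exons of 2538 protein-coding genes, 14.4% of the 17618 that had eligible exonic sequence. Each member was assigned to 1 gene, and 69 lay in exons of more than 1. There was 1 member in 1989 genes, 2 in 397, 3 in 110, 4 in 26 and 5 in 14, and MACF1 had most, with 8. The 549 genes with 2 or more members held 1312 of them. Host genes often had a peak at their own start: 73.8% had a FLAG-ZMYND8 peak within 3 kb of it (72.0 to 75.4%), against 60.3% of all the genes considered and 58.1% of those without a member. A ZMYND8 peak was at the start of 40.1% of host genes (38.3 to 42.1%), against 35.6% of all the genes considered. Host genes also had more eligible exonic sequence, with a median of 5348 bp against 3336 bp in genes without a member, and the part of gene length in these shares was not tested.

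By chromosome, density ranged from 16.6 members per Mb of eligible exonic sequence on chromosome X (12.3 to 22, 49 members) to 79.7 on chromosome 22 (66.4 to 94.9, 126 members). Chromosomes 17, 19 and 16 followed with 70.5, 66.9 and 63.1 per Mb. Chromosome 1 held most members, 334, at 40 per Mb, which is close to the 40.1 of all exonic sequence. These densities were not matched for GC content, and differences between chromosomes were not tested.

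MACF1 encodes a large linker of actin filaments and microtubules and had 8 members in 65828 bp of eligible exonic sequence. The gene spans chr1:39546988-39952849 on the plus strand and held 42 FLAG peaks and 2 ZMYND8 peaks. Its members comprised 5 in coding sequence, 2 in 5′ UTRs and 1 in a 3′ UTR. Within 500 bp of a transcript start lay 6 of the 8. The first member, 327 bp wide in exon 1 of 101, lay 30 bp from a transcript start. A pair near the middle of the gene, at 46.1 and 46.2% of its length, lay 56 and 467 bp from a transcript start and shared an exon of 1161 bp. The 3′ UTR member, 212 bp wide at 5.39% of the length, lay 2202 bp from one. The other 4 lay between 80.9 and 82.0% of the length, at 89, 1088, 212 and 204 bp from a transcript start. The member at 1088 bp had a GC content of 46.5%, and the last pair 66.5 and 67.0%.

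Genes with 5 members showed different arrangements. In AKNA, which encodes an AT-hook protein, 4 coding members were spread over exons 5, 10, 15 and 21 of 22, all between 167 and 211 bp wide, with a member in the 3′ UTR. LTBP3, which encodes a binding protein of latent TGF-β, had 4 coding members in exons 3, 10, 19 and 21 of 28, at 383, 315, 55 and 219 bp from a transcript start. CMTM4 and HS1BP3 had all their members in 3′ UTRs. Those of CMTM4 were packed into the last part of the gene, between 91.7 and 99.1% of its length, with widths of 167 to 595 bp. KIAA1522 had its members between 90.1 and 98.9% of its length, 2 in a coding exon of 2562 bp and 3 in the 3′ UTR. DAZAP1, which encodes an RNA-binding protein, had 2 members in coding exons and 3 in other exonic sequence. MIDEAS, which encodes a subunit of a histone deacetylase complex, had 3 members in the 3′ UTR and 1 coding member. NAV2, which encodes a neuron navigator protein, had 3 coding members between 77.6 and 94.6% of its length.

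**Figure D5:**
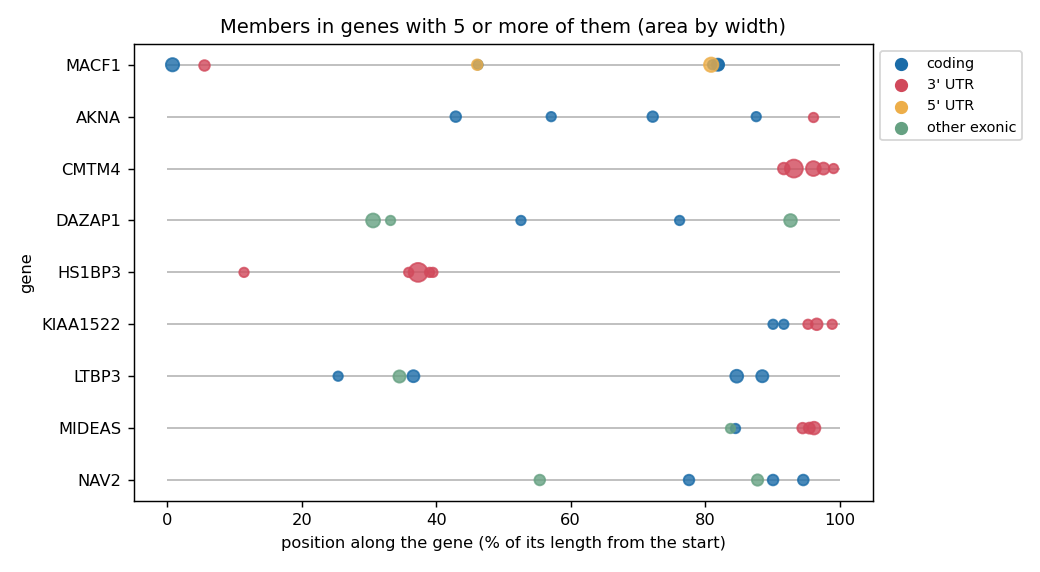
Members in MACF1 and in 8 genes with 5 members each, by position along the gene in % of its length from the start; colours give the class and the area of a point grows with the width of the peak. MACF1 shows a pair at 46% and a cluster from 80.9%, CMTM4 a cluster of 3′ UTR members from 91.7%, and AKNA coding members from 42.9 to 87.6%.

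The widest coding members were few and of mixed kind. FER1L5 carried one of 995 bp over exon 21 of 52, an exon of 178 bp, 15728 bp from any transcript start. REM2, a GTPase of the RGK family, carried one of 810 bp in its last exon, with a GC content of 68.5% and 21 CpG dinucleotides in the central window. CREBZF, a bZIP transcription factor, carried one of 779 bp in a first exon, 72 bp from a transcript start, with a GC content of 71.5%. DNAJB12, a chaperone of the endoplasmic reticulum membrane, carried one of 731 bp in its last exon at a GC content of 48.5%. MOV10, an RNA helicase, carried one of 717 bp in its last exon, and SHMT2, the mitochondrial serine hydroxymethyltransferase, one of 710 bp over exon 10 of 12. Their GC content thus ranged from 48.5 to 71.5%, against a range of 41.5 to 78.5% over all coding members.

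The widest members in untranslated parts lay at transcript starts in 3 of 4 cases. KIFC3, a minus-end directed kinesin, carried one of 997 bp in a 5′ UTR 24 bp from a transcript start. TRIM36, an E3 ubiquitin ligase, carried one of 995 bp at 10 bp, with a GC content of 72.5%. HOXA3, a homeobox gene of the HOXA cluster, carried one of 976 bp at 113 bp, with a GC content of 77.0% and 25 CpG dinucleotides in the central window. The fourth, of 964 bp, lay in the 3′ UTR of SUSD6, 14333 bp from any transcript start, at a GC content of 51.0%.

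The ZMYND8 gene itself (chr20:45837859-45985633, minus strand) held 2 members, both in coding exons. The first, chr20:45891034-45891241, was 208 bp wide over exon 12 of 23, an exon of 141 bp, at a GC content of 48.5%. The second, chr20:45867663-45867916, was 254 bp wide in exon 15 of 23, an exon of 381 bp, at a GC content of 65.0%. Both were far from any transcript start, at 36506 and 59854 bp. The induced construct carries ZMYND8 coding sequence, and the peak list cannot tell apart reads from the construct and from the gene.

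Gene families were described by counts, beside the 14.4% of all genes with a member and the 40.1 members per Mb of all eligible exonic sequence. GC content and exon class were not matched between a family and all genes, here or for the families below, and no difference was tested. Among C2H2 zinc finger genes with a ZNF symbol, 40 of 496 had a member (8.06%, 5.98 to 10.8%), at 20.7 per Mb (15.3 to 27.2). ZNF385A had 4 members, among them a 5′ UTR peak of 789 bp, and ZNF609 had 3 coding members. None of the 44 clustered protocadherin genes had a member in 0.119 Mb. This allows up to 31.1 per Mb and a share of genes of up to 8.03%. Eligible sequence was counted for each gene, so bases in exons of several genes can count more than once. Where genes share exons these limits are too narrow, and a shortfall against all genes cannot be read from them. Plexins, the receptors of semaphorins, had members in 5 of 9 genes, at 110 per Mb (50.1 to 208) from 9 members. PLXNA4 had 3 members, 1 each in the 5′ UTR, a coding exon and the 3′ UTR, and PLXNA1 had 2 in its 3′ UTR.

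Families of long, exon-rich genes were on both sides of the overall density with wide intervals. Collagens had members in 11 of 44 genes (31.6 per Mb, 16.3 to 55.3), with 2 coding members of 357 and 411 bp next to each other in COL5A1 and 1 in COL11A2. Laminins had members in 3 of 12 genes (33.5 per Mb, 9.12 to 85.7), namely LAMA3, LAMB1 and LAMB2. NOTCH receptors had members in 3 of 4 genes (75.3 per Mb, 15.5 to 220), with a coding member in NOTCH3 and one of 339 bp in a 5′ UTR of NOTCH2, 49 bp from a transcript start. Voltage-gated calcium channel alpha subunits had members in 4 of 10 genes (40.7 per Mb, 14.9 to 88.6), with 2 each in CACNA1E and CACNA1G. Axonemal dynein heavy chains had members in 4 of 13 genes (19.9 per Mb, 5.41 to 50.9), among them DNAH10 and DNAH14.

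Genes of chromatin regulators, among them the NuRD subunits, held between 0 and 10 members per list. NuRD subunits had members in 5 of 13 genes (58.7 per Mb, 19.1 to 137), with 1 each in CHD3, GATAD2A, HDAC1, MTA3 and RBBP7. The member of CHD3, a remodelling ATPase, was coding and lay 99 bp from a transcript start. Histone acetyltransferase genes had members in 2 of 10, a coding member of 167 bp in exon 14 of 31 of EP300 and a 3′ UTR member in KAT6A. None of the 10 KDM and CoREST genes had a member in 0.101 Mb. This allows up to 36.5 per Mb, below the overall density, and a share of genes of up to 27.8%, above that of all genes. The list is small and was not matched for GC content or exon class, so a shortfall cannot be read from it. H3 lysine methyltransferase genes had 10 members in 4 of 11 genes (53.4 per Mb, 25.6 to 98.2). NSD2, which methylates H3K36, had 3 members in its 3′ UTR and 1 in a 5′ UTR 42 bp from a transcript start. SETD1B, an H3K4 methyltransferase, had 3 coding members, of which 256 and 415 bp wide ones shared an exon of 1233 bp at GC contents of 64.5 and 70.5%. The density intervals of the NuRD, acetyltransferase and methyltransferase genes included the overall density.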

How the data were processed

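ChIP-seq reads were mapped by the authors to hg19 with BWA-MEM, and profiles were made with HOMER (BWA 0.7 and HOMER in the submitters' processing notes). Peak-calling settings and how replicates were combined are not given in the sources used here. The authors deposited 2 peak lists of 6 columns with positions in hg19. The deposited score is 1 in every row and was not used. No columns of the authors' own comparisons were present, and 0 columns belonged to other samples.

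Peak midpoints were placed on GENCODE release 44 mapped to GRCh37, with 63827 genes on chromosomes 1 to 22 and X. A peak of 1 bp overlap or more counted as shared. Territory is all bases over 3 kb from every gene start, GC content is that of the 200 bp window, and densities have exact Poisson and shares Wilson 95% intervals. Shares were compared with Fisher's exact test, with Benjamini-Hochberg adjustment over 3 tests. The members, gene lists and comparisons were chosen with earlier results of these data known, and the comparison at equal GC content after seeing them. The rule for named genes took the 10 with most members (ties by symbol, which left out 6 of the 14 genes with 5, and 1 gene is not reported here), the 6 widest coding and 4 widest untranslated members, members in ZMYND8, and the 2 genes with most members in each list. HDAC1, MTA3, RBBP7 and LAMB2 were named to complete their counts. Alternatives changed the width, distance, overlap, transcript set, GC threshold and window. On 4000 simulated peaks, class, distance and gap were recovered in 100%. Scripts ran under Python 3.11.15 (matplotlib 3.10.9, pysam 0.24.0, scipy 1.17.1, pandas 2.3.3, numpy 2.4.6).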

Additional observations from a re-analysis of the deposited data

How the results depend on the processing

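No paired analysis was possible because each list stands for its target as a whole, with replicates unnamed. Leaving out single replicates was not possible either. Of 56 alternatives to 10 results, 38 kept the direction and the side of the threshold of a test, or stayed within the limits set for a count or share. These included 2601, 3049 and 2516 members with a distance of 5 kb, a gap of 1 kb to the other list and basic transcripts, against 3301. With a threshold of 50% GC, the differences in GC-rich share were much smaller, 5.07 against 29.8 points and 3.18 against 18.5. With peaks wider than the minimum width only, there were 1257 members in 1080 genes, a ratio of coding to intronic density of 2.99, a GC-rich share of 63.0% and a last-exon share of 36.4%. The share at the minimum width has no value there. With transcript starts in place of gene starts, there were 1371 members in 1173 genes, a density ratio of 2.27, a GC-rich share of 45.3%, a minimum-width share of 67.9% and a last-exon share of 64.3%. With exons of basic transcripts only, the coding share was 53.9% and the last-exon share 45.1%. The GC-rich share was 51.6% over 5 kb from gene starts, 95.7% with a threshold of 50% GC and 52.2% in the peak's own interval. Without peaks that had a peak of the other list within 1 kb, the difference in coding share between FLAG-only and antibody-only exonic peaks was -6.07 points (Fisher's exact test, p = 0.0375), past the threshold, while its other alternatives ranged from p = 0.114 to 0.639. The cause was not tested. The ratio of coding to intronic density turned from 2.61 to 0.768 in sequence of the same GC content, a comparison added after the data were seen. Both tests of GC-rich shares kept their direction and passed the threshold under every alternative run, with differences of up to 31.9 points for exonic against intronic peaks and up to 22 points for coding against untranslated members. None of these alternatives allowed for the GC content of the sequence each class offers. They therefore do not show a difference beyond that of the sequence itself. Depth is unknown, so a missing peak in a gene cannot be read as a lack of binding.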
